A study of Mus musculus with 6 samples.

Results

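The Toll-like receptor genes Tlr1, Tlr2, Tlr4, Tlr6, Tlr7, Tlr8, Tlr9 and Tlr13 and the co-receptor genes Cd14 and Ly96 were followed in RNA of mouse LSK cells, which are sorted from bone marrow as lineage-negative cells with Kit and Sca1 on their surface and include stem cells and early progenitors. These 10 genes were taken by symbol from a table of 24063 symbols, and all 10 were among the 13679 that passed a filter on low counts. The series compares 3 libraries labelled knockout, from mice of genotype Arid2fl/fl:MxCre+, with 3 control libraries from MxCre+ mice without the floxed alleles. All mice were of a C57/BL6 background, were injected with pIpC at 6 to 8 weeks of age and gave bone marrow 6 weeks later, so the Cre transgene, the injection and the time after it were shared by both groups. Arid2 encodes a subunit of the PBAF chromatin remodelling complex, and its deletion here depends on Cre driven by the interferon-inducible Mx promoter, which is not limited to blood cells. pIpC, a synthetic double-stranded RNA, is itself a ligand of the receptor encoded by Tlr3. The labels name no animal or litter for any library. The p-values therefore reflect variation among these 6 libraries, which may be technical.

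Toll-like receptors are membrane proteins of innate immunity that recognise molecules of microbes through leucine-rich repeats and signal through a cytoplasmic TIR domain. Of the receptors followed here, those at the cell surface bind lipids and lipoproteins of bacterial envelopes, and those in endosomes bind nucleic acids. Most Toll-like receptors signal through the adaptor Myd88 to NF-kB and interferon regulatory factors. They are best known in macrophages, dendritic cells and neutrophils, and haematopoietic stem and progenitor cells also express several of them and can respond to their ligands by producing myeloid cells.

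Tlr1 and Tlr6 lie side by side on chromosome 5, with a gap of 18467 bases between them, and their coding sequences share a stretch that bears on how their reads could be counted. Of 3332 windows of 50 bases in the Tlr1 transcripts (GENCODE M21), 513 (15.4%) also occur in transcripts of other genes, and 454 of these are in Tlr6. Of 3702 windows in Tlr6, 456 (12.3%) are shared. Tlr4 shared 12 of 5551 windows, and no window was shared for the other 7 genes. The longest identical run is 229 bases long and is shown because a read wholly inside it cannot be assigned to either gene by its own letters. This run lies in the coding exon of Tlr1 at chr5:64925537-64925765 and of Tlr6 at chr5:64953828-64954056 (GRCm38, minus strand, 5' to 3').
Tlr1 and Tlr6, shared coding run: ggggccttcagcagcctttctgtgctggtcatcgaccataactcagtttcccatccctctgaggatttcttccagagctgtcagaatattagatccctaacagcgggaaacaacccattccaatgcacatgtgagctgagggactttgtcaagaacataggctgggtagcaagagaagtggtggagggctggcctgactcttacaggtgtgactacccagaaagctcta
The sources used here do not state how the authors' counting treated such reads, so the split between Tlr1 and Tlr6 is uncertain. No gene of the annotation overlapped any of the 10 genes on either strand, and no member's counts repeated those of another symbol.

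RefSeq start sites (GRCm38.p6) were listed for 6 of the 10 genes, Tlr1, Tlr2, Tlr6, Tlr8, Tlr9 and Tlr13, with 8 entries in all. In the 250 bases before each start, the letters GAGGAA, the core of sites for the myeloid factor PU.1, were found on either strand in an entry of Tlr1, Tlr8, Tlr9 and Tlr13, that is in 4 of 8 entries against 23.3% of all 32851 promoter entries. The letters GAAA, any 2 bases and GAAA again, part of the interferon-stimulated response element, were found in an entry of Tlr6 as a pair of overlapping matches, and in 3% of all entries. The NF-kB letters GGGA, any 2 bases and TTCC were found in none of the 8 entries and in 1.2% of all. TTGCNNAA, letters of sites for C/EBP factors, was found in an entry of Tlr6 and of Tlr8 and in 9.6% of all. The entry of Tlr2, which passed the test below, and 1 of Tlr1 held none of these letters. Annotated exon filled 159 and 211 of their 250 bases, and they are not shown. A Tlr6 entry with 49 exon bases also held none. Each sequence shown holds a match. Sequences of 3 genes that passed the test below and of Tlr9, which did not, are shown up to the first annotated exon base, 5' to 3' on the gene's strand, with GAGGAA (or, in Tlr6, the paired GAAA motif on the reverse strand) in capitals.
Tlr1, chr5:64933564-64933808, minus strand: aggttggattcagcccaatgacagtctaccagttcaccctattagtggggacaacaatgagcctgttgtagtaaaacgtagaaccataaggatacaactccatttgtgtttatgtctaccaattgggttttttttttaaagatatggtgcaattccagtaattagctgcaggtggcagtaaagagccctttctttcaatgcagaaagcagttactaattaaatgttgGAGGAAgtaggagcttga
Tlr13, chrX:106143025-106143203, plus strand: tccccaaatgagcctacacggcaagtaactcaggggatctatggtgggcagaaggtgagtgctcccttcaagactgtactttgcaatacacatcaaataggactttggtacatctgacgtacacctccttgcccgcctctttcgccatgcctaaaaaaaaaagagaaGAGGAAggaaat
Tlr6, chr5:64959167-64959416, minus strand, before a start inside the gene: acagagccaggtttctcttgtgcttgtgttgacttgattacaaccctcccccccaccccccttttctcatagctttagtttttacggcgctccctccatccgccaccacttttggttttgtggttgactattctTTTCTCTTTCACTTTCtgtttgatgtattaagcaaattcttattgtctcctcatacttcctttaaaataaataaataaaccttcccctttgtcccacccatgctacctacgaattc
Tlr9, chr9:106222348-106222597, plus strand: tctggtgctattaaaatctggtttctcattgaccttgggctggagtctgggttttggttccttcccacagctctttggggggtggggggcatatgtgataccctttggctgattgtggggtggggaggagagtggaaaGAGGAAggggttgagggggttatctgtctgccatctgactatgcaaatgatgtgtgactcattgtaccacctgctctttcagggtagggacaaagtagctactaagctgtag
These matches describe the letters of the windows and were not tested as binding sites.

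Libraries held between 12408966 and 28185678 counted reads. The targeted gene Arid2 had 162.5, 150.2 and 155.4 CPM (reads per 1000000 counted reads after TMM scaling) in knockout replicates 1 to 3 and 165, 154 and 148.4 CPM in control replicates 1 to 3. Its level thus did not set the groups apart, a count over a whole gene cannot show the loss of a floxed exon, and directions below rest on the labels. All 3 libraries labelled knockout and control replicate 2 held Xist RNA, and control replicates 1 and 3 held Y-linked RNA in its place, so control replicate 2 is the sole female control. Kit, of the sort gate, lay between 426.3 and 655.2 CPM, whereas Ly6a, which encodes Sca1, lay between 12.4 and 22.3 CPM. RNA of myeloid cells was also present in every library, with Lyz2 at 682.1 CPM or more and S100a9 at 737.2 CPM or more. With edgeR's quasi-likelihood test on the group alone, 3.85% of the 13679 genes were called higher in the libraries labelled knockout and 4.58% lower, at a Benjamini-Hochberg adjusted p under 0.05.

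Of the 10 receptor and co-receptor genes, 6 rose in the libraries labelled knockout, none fell and 4 missed the threshold. The 6 were all 4 surface receptors (Tlr1, Tlr2, Tlr4 and Tlr6), the endosomal receptor Tlr13 and the co-receptor Cd14. All 10 had a positive log2 fold change, with a median of 0.70, against a median of -0.0016 over all genes tested. For 8 of the 10, every library labelled knockout lay above every control, which held for 15.1% of all genes tested. When edgeR modelled sex beside the group, none of the 10 passed (0.314% of all genes did, in either direction), the median was 0.66, and 6 had an unadjusted p under 0.05, where 5.41% of all genes were higher at that p. In that fit the group difference rests on control replicate 2, the sole female control. Without knockout replicate 2, Tlr1, Tlr4 and Cd14 passed and the other 7 did not, with 0.864% of all genes called higher. Monocyte and macrophage markers were higher in the same libraries. On the group alone 6 of 17 passed the test, and with the sex term none did. Their summed levels were 3264 to 3683 CPM against 1819 to 2427 CPM, and their part in the levels of the receptors was not tested. In bulk RNA, more cells of a type and more RNA per cell cannot be told apart.

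**Figure D1:**
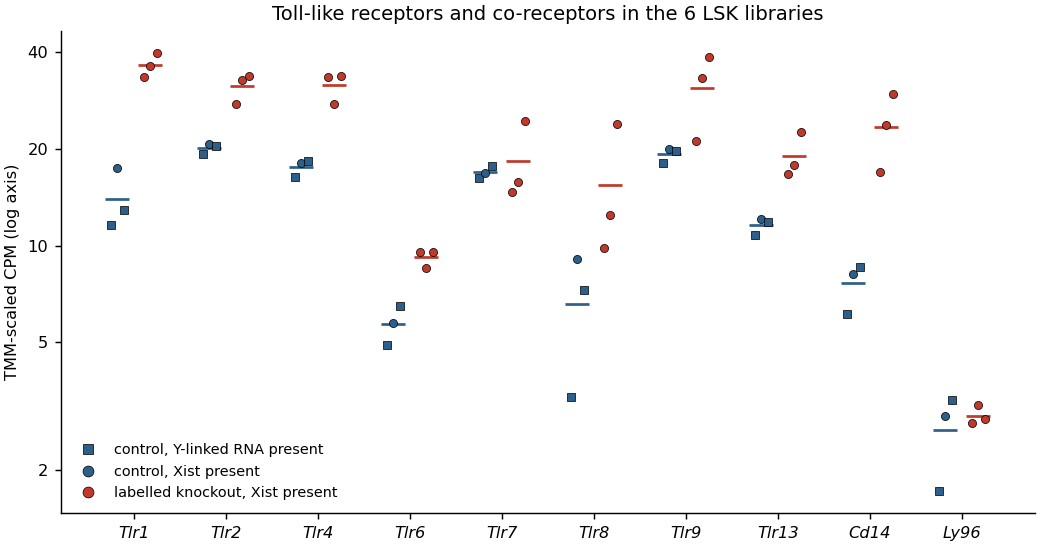
Levels of the 10 genes in each of the 6 libraries, as TMM-scaled CPM on a log axis; each point is a library, horizontal bars are group means, and squares mark the control libraries with Y-linked RNA. The red points (labelled knockout) lie above all blue points (control) for 8 genes, and the groups overlap for Tlr7 and Ly96.

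Among the surface receptors, Tlr1, which pairs with the product of Tlr2 to bind triacylated lipopeptides, differed most. It had 33.5, 36.3 and 39.8 CPM in knockout replicates 1 to 3 and 11.6, 17.4 and 12.9 CPM in control replicates 1 to 3. The groups did not overlap, and the female control lay above both male controls. Tlr1 thus had a log2 fold change of 1.37 (SE 0.15, edgeR adjusted p = 0.00346, n = 3 each), a ratio of 2.59 with a 95% interval of 2.02 to 3.3. With the sex term it was 1.07, with an adjusted p of 0.0503, which narrowly missed the threshold.

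Tlr4, the receptor for lipopolysaccharide of Gram-negative bacteria, had 33.5, 27.6 and 33.8 CPM in the libraries labelled knockout and 16.4, 18.2 and 18.3 CPM in controls. Every library labelled knockout was above every control, and the controls spanned a narrow range. Its log2 fold change was 0.84 (SE 0.11, edgeR adjusted p = 0.00549, n = 3 each), and 0.80 with the sex term (adjusted p = 0.124).

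Tlr2, the shared partner of both Tlr1 and Tlr6 in lipopeptide recognition, had 27.6, 32.8 and 33.7 CPM against 19.2, 20.8 and 20.5 CPM. The groups did not overlap, with a log2 fold change of 0.64 (SE 0.10, edgeR adjusted p = 0.0114, n = 3 each) and 0.59 with the sex term (adjusted p = 0.186). Without knockout replicate 2 it was 0.60 with an adjusted p of 0.0591.

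Tlr6, which pairs with Tlr2 to bind diacylated lipopeptides, was the lowest of the surface receptors, with 9.57, 8.55 and 9.55 CPM against 4.92, 5.76 and 6.47 CPM. The groups did not overlap, but its call was the least stable of the 6. Tlr6 had a log2 fold change of 0.69 (SE 0.17, edgeR adjusted p = 0.0404, n = 3 each) and 0.68 with the sex term (adjusted p = 0.366). Among 6 fits with a library removed it passed in 1, that without control replicate 3, and in the other 5 its adjusted p was between 0.0801 and 0.114 at log2 fold changes of 0.59 to 0.74. As the shared run above shows, part of the reads of Tlr6 and Tlr1 may be exchanged between them.

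Of the co-receptors, Cd14, which hands lipopolysaccharide to the Tlr4 complex and also serves other Toll-like receptors, had the highest fold change of the 10. It had 16.9, 23.7 and 29.8 CPM in knockout replicates 1 to 3 and 6.15, 8.17 and 8.61 CPM in controls. The lowest library labelled knockout was well above the highest control. For Cd14 the log2 fold change was 1.61 (SE 0.22, edgeR adjusted p = 0.00623, n = 3 each), a ratio of 3.05 with a 95% interval of 2.15 to 4.32. Modelling sex gave 1.52 (adjusted p = 0.151). Cd14 (chromosome 18, 36725067 to 36726798, minus strand, GRCm38) is annotated with a single merged exon.

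Ly96 encodes MD-2, the protein that sits on the extracellular part of Tlr4 and forms its lipopolysaccharide pocket. It was the least abundant of the 10 in counts, with 28 to 83 reads per library. It had 2.8, 3.19 and 2.89 CPM against 1.72, 2.95 and 3.31 CPM, and the groups overlapped. The log2 fold change was 0.15 with a 95% interval of -0.48 to 0.79 (edgeR adjusted p = 0.781, n = 3 each), and it was 0.0079 with the sex term. That interval spans decreases as well as an increase close to that of Tlr4.

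Among the endosomal receptors, Tlr13, a mouse receptor for bacterial ribosomal RNA, was the sole gene past the test. It had 16.7, 17.9 and 22.6 CPM in the libraries labelled knockout and 10.8, 12.1 and 11.8 CPM in controls, with no overlap. The log2 fold change was 0.71 (SE 0.14, edgeR adjusted p = 0.0226, n = 3 each) and 0.65 with the sex term (adjusted p = 0.298). The call was lost without knockout replicate 2, knockout replicate 3 or control replicate 1 (adjusted p = 0.0711, 0.0591 and 0.0794, log2 fold change 0.76, 0.58 and 0.67).

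Tlr9, the receptor for unmethylated CpG DNA, had 21.2, 33.3 and 38.8 CPM against 18.1, 20.1 and 19.8 CPM. The groups did not overlap, though knockout replicate 1 lay close to the controls. The log2 fold change of 0.68 did not pass (SE 0.20, edgeR adjusted p = 0.0703, n = 3 each). It passed without knockout replicate 1 (0.90, adjusted p = 0.0131) and with DESeq2 (0.69, adjusted p = 0.00745), and with no filter on low counts (0.68, adjusted p = 0.0188). With any other library left out, edgeR gave an adjusted p between 0.107 and 0.197. The sex term in edgeR gave 0.63 (adjusted p = 0.469), and limma-voom gave 0.61 (adjusted p = 0.111).

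Tlr7 and Tlr8 are neighbours on the X chromosome, 40599 bases apart, and encode receptors of single-stranded RNA and its breakdown products. Tlr8 had 9.83, 12.4 and 24 CPM in knockout replicates 1 to 3 and 3.38, 9.1 and 7.3 CPM in controls. The groups did not overlap by a small margin, and both spanned a wide range. Its log2 fold change was 1.19 (SE 0.41, edgeR adjusted p = 0.112, n = 3 each), and 0.74 both without knockout replicate 3 and with the sex term (adjusted p = 0.279 and 0.663). It passed with no filter on low counts (1.19, adjusted p = 0.0318). Tlr7 had 14.7, 15.8 and 24.5 CPM against 16.3, 16.8 and 17.7 CPM. Knockout replicate 3 alone was above the controls, and the other knockout libraries were below them. The log2 fold change of Tlr7 was 0.10 with a 95% interval of -0.32 to 0.53 (edgeR adjusted p = 0.782, n = 3 each), and -0.15 without knockout replicate 3.

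Tlr7, Tlr8 and Tlr13 are all X-linked, and the groups differ in sex. Of 442 X-linked genes tested, 17 were higher and 21 lower, beside 3.85% higher and 4.58% lower of all genes tested. Their median log2 fold change was -0.04. Tlr7 in the female control (16.8 CPM) lay between both male controls, and Tlr13 there (12.1 CPM) exceeded the higher of them, 11.8 CPM, by less than the spread of the controls. Tlr8 was highest of the controls in the female, at 9.1 CPM. In the edgeR fit with a sex term, the male minus female log2 difference was 0.013 for Tlr7, -0.78 for Tlr8 and -0.093 for Tlr13. These comparisons and that term rest on the sole female control. Beyond that term, the part of sex in the group differences of these genes was not tested.

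**Figure D2:**
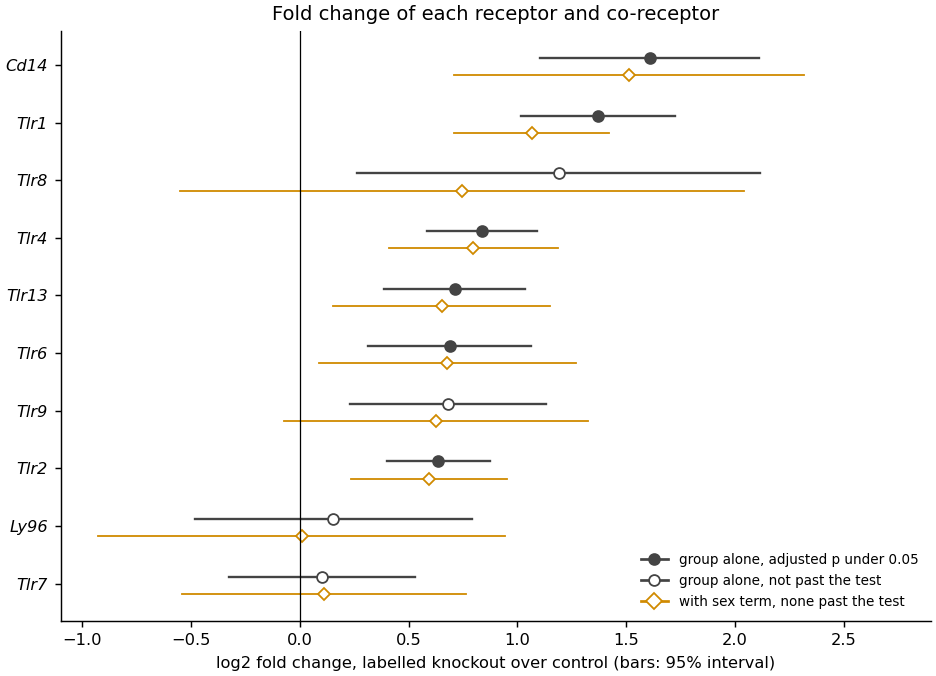
Log2 fold change of each gene, libraries labelled knockout over controls, from edgeR on the group alone (circles, filled where the adjusted p was under 0.05) and with a sex term (diamonds), with bars for 95% intervals. Most sex-term estimates lie close to the estimates without it, 0.80 against 0.84 for Tlr4, with wider intervals, and Tlr1 and Tlr8 move furthest.

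Levels were compared between genes as CPM per kilobase of merged exon (GENCODE M21). In controls the order was Tlr2 (6.69 ± 0.27), Tlr9 (5.55 ± 0.31), Cd14 (4.41 ± 0.76), Tlr1 (4.18 ± 0.91), Tlr7 (4.15 ± 0.17), Tlr4 (3.17 ± 0.19), Tlr13 (2.69 ± 0.16), Ly96 (2.60 ± 0.81), Tlr8 (1.84 ± 0.82) and Tlr6 (1.53 ± 0.21), each in CPM per kilobase (SD, n = 3). The 3 libraries of neighbouring genes did not overlap from Tlr2 to Tlr9, from Tlr9 to Cd14, from Tlr7 to Tlr4 and from Tlr4 to Tlr13, and overlapped at every other step. In the libraries labelled knockout Cd14 stood first, at 13.5 ± 3.71 CPM per kilobase, followed by Tlr1 (10.9 ± 0.95), Tlr2 (10.4 ± 1.1) and Tlr9 (8.94 ± 2.59), and the libraries of neighbours in that order overlapped among these 4. From Tlr9 to Tlr4 and from Ly96 to Tlr6 they did not overlap. The lowest Tlr9 library (6.09 CPM per kilobase) was barely above the highest Tlr4 library (6.08). Tlr6 was last in both groups, at 2.47 ± 0.16 CPM per kilobase in the libraries labelled knockout.

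The summed level of the 4 surface receptors was 104.1, 105.2 and 116.8 CPM in knockout replicates 1 to 3 and 52.2, 62.1 and 58.1 CPM in controls. The sum of the 4 endosomal receptors was 62.4, 79.4 and 109.9 CPM against 48.6, 58.1 and 56.6 CPM. Both sums were highest in knockout replicate 3 and lay above every control in all 3 libraries labelled knockout. The genes whose log2 CPM followed Tlr1, the gene with the smallest p of the 10, most closely over the 6 libraries were Ephx1, Sgk1, Rap1gap2, Slc13a3 and Sowahc, with Pearson r from 0.993 to 0.996, of 11512 genes ranked. These values carry the group difference itself and are given as a description.

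Toll-like receptor genes outside the 10 leaned the same way without passing. Tlr3, the endosomal receptor for double-stranded RNA, had 15.9, 25.2 and 19.7 CPM against 7.25, 11.9 and 16.8 CPM (log2 fold change 0.77, edgeR adjusted p = 0.133). Tlr11, a receptor of protozoan profilin, had 11.9, 20.5 and 16.8 CPM against 4.79, 6.54 and 11.1 CPM, without overlap (1.15, adjusted p = 0.0563). Without control replicate 3 both passed, with log2 fold changes of 1.07 and 1.52. Tlr12, its partner, had 0.26 (adjusted p = 0.489), and Tlr5, the flagellin receptor, stayed at 1.21 CPM or less in every library.

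Of 101 other pathway symbols listed by role, 100 had a row, since Lilrb3 is another name of Pirb, and 95 passed the filter. Among these 21 rose, 1 fell and 73 missed the threshold, with a median log2 fold change of 0.23, beside 8.42% of all genes called in either direction. With the sex term edgeR called none of the 95, 24 had an unadjusted p under 0.05, where 11.9% of all genes had one, and the median was 0.17. Without knockout replicate 2, knockout replicate 3 or control replicate 1 the number called fell to 3, 8 and 6, and the share of all genes called fell likewise, to 2.1%, 3.64% and 3.39%, so without knockout replicate 2 the count lay near the background. Numbers below are of genes tested in each role.

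**Figure D3:**
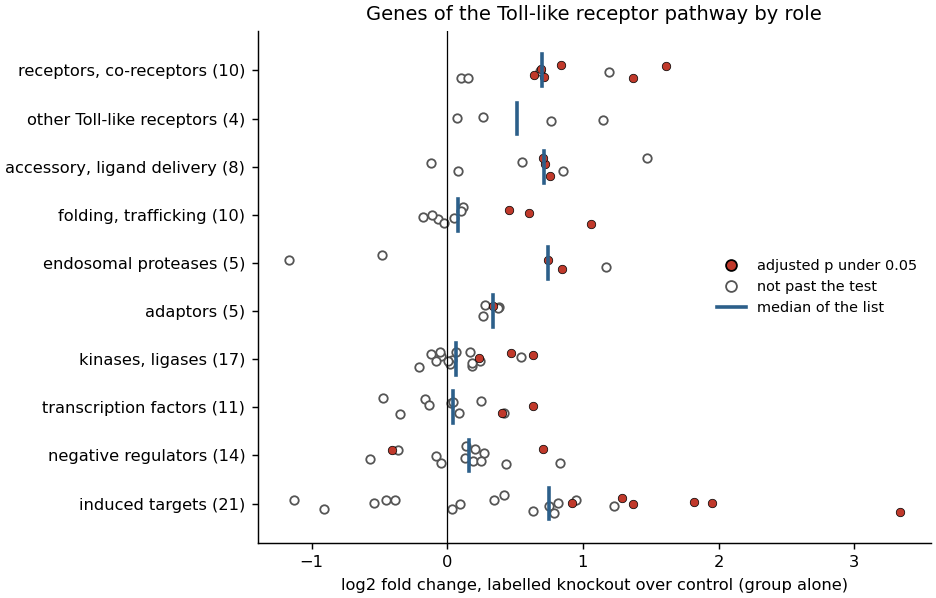
Log2 fold change of each tested gene of the Toll-like receptor pathway by role (labelled knockout over control, edgeR on the group alone), with filled points past an adjusted p of 0.05, and a vertical bar at each list's median; the number tested is in brackets. Receptors, accessory proteins, proteases and induced targets have medians between 0.52 and 0.75, and kinases and transcription factors have medians of 0.06 and 0.05.

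Accessory proteins had 3 of 8 higher. Ly86 encodes MD-1, the partner of the Tlr4-like surface protein encoded by Cd180, and had 63.8, 84.8 and 69.5 CPM against 46.7, 47.4 and 38.6 CPM (log2 fold change 0.72, edgeR adjusted p = 0.0129, n = 3 each), and passed in all 6 fits without a library. Cd180 itself had 42, 47.5 and 61.9 CPM against 48.5, 46.9 and 47.5 CPM (0.08, adjusted p = 0.76). Itgb2 and Itgam, the chains of the integrin Mac-1, which is also a marker of the lineages that the sort removes, had log2 fold changes of 0.70 and 0.75 (adjusted p = 0.0101 and 0.0327).

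Genes for the folding and transport of the receptors divided. Unc93b1, which carries endosomal receptors out of the endoplasmic reticulum, had 391.4, 420.6 and 373.6 CPM against 262.4, 294.3 and 224.1 CPM (log2 fold change 0.60, edgeR adjusted p = 0.0125, n = 3 each). The endolysosomal transporter genes Slc15a4 and Slc15a3 were also higher (0.45 and 1.06, adjusted p = 0.0244 and 0.0365). Hsp90b1, a chaperone of the endoplasmic reticulum that folds surface and endosomal receptors, and Cnpy3, its co-chaperone for Toll-like receptors, had -0.07 and 0.05 and did not pass. Of 5 endosomal proteases that trim nucleic acid receptors, Ctsb and Ctss were higher (0.74 and 0.85, adjusted p = 0.0194 and 0.0218), Ctsl had -0.48 and did not pass (adjusted p = 0.0722).

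Downstream of the receptors, most genes did not pass the test. Myd88, the main adaptor, had 88, 75.7 and 89.7 CPM against 68.2, 70.1 and 61.6 CPM, without overlap (log2 fold change 0.34, edgeR adjusted p = 0.0461, n = 3 each), and passed in none of 6 fits with a library removed. The other 4 adaptors tested did not pass, with 0.26 to 0.38. Of 17 kinases and ligases, Irak2, a Myd88-associated kinase, Ikbke and Ripk1 were higher (0.47, 0.63 and 0.23, adjusted p = 0.0208, 0.0324 and 0.0474), while Irak1, Irak4 and Traf6 had -0.05, 0.24 and -0.12 and did not pass. Of 11 transcription factors, Irf5, which acts below Myd88, and Relb were higher (0.41 and 0.63, adjusted p = 0.0268 and 0.0324). Of 14 negative regulators, Sigirr, an inhibitory receptor with a TIR domain, was lower (42 ± 1.29 against 55.8 ± 5.4 CPM, -0.41, adjusted p = 0.0267), and Pirb, an inhibitory receptor of myeloid and B cells, was higher (0.71, adjusted p = 0.0475). With a library removed, Sigirr passed in 1 and Pirb in 2 of 6 fits.

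Of 21 induced target genes, 6 were higher, and many of these were at low levels. Cxcl10, a chemokine, had 9.09, 7.9 and 12 CPM against 1.78, 3.66 and 2.55 CPM (log2 fold change 1.82, edgeR adjusted p = 0.00976, n = 3 each). Il1rn, the interleukin-1 receptor antagonist, had 4.54, 4.88 and 7.3 CPM against 0.92, 2.13 and 1.03 CPM (1.95, adjusted p = 0.0173). Il12b, the shared subunit of interleukin-12 and interleukin-23, had at most 1.16 CPM in any library (3.34, adjusted p = 0.0158). The other 3, Cd86, Cd40 and Ccl5, had 1.29, 1.37 and 0.92 and are named after their values were seen, as are Tnf (0.42, adjusted p = 0.176), Il1b (0.03, adjusted p = 0.967) and Il6, which had under 1 CPM in every library. Target genes thus included some that were higher and classical cytokine genes that did not pass.

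Other marker lists were read in the same libraries. The monocyte and macrophage markers past the test included Marco, Lyz2 and Csf1r, and none of that list fell. Of 12 neutrophil markers 5 were higher, with sums of 7190 to 9211 against 2979 to 5755 CPM. Of 7 dendritic cell markers tested 2 were higher, with sums over 8 of 142.6 to 224.6 against 113.7 to 153.9 CPM, and Siglech, of plasmacytoid dendritic cells, was under 1 CPM in every library. Of 9 B and plasma cell markers none was higher and 1 lower (55.3 to 60.4 against 58.6 to 72.3 CPM). For 8 T and NK cell markers the calls were likewise (251.1 to 318.5 against 209.7 to 277.8 CPM). Yet 7 of the 9 and 5 of the 8 had a positive log2 fold change, with medians of 0.46 and 0.35. The lower B and plasma cell marker was Cd79b, at a mean of 12.7 against 28.4 CPM, and it weighs heavily in that sum. Sort gate and stem cell genes had 4 of 8 lower, with sums of 1157 to 1318 against 1569 to 1906 CPM. Of 9 erythroblast markers tested 5 were higher and none lower, with a median log2 fold change of 2.45 and sums of 240.5 to 474.4 against 174.6 to 236.5 CPM. The beta-globin gene Hbb-bs, whose reads may be shared with its near-identical copy Hbb-bt, had 36.4, 56.2 and 109.8 CPM against 4.98, 4.16 and 5.58 CPM (log2 fold change 3.79, edgeR adjusted p = 0.00329, n = 3 each). Of 6 mast cell and basophil markers tested none was higher and Cpa3, Gata2 and Mcpt8 were lower, with sums over 7 of 298.1 to 403.8 against 482.6 to 745.9 CPM. Of 5 stromal and endothelial markers tested none was higher and 1 lower, with sums over 8 of 95.7 to 126.2 against 120.5 to 132.5 CPM. In some of these sums 1 gene weighs heavily. Mean levels over all libraries were 217.8 CPM for Nkg7 (T and NK), 149.5 CPM for Tfrc (erythroblast) and 109.6 CPM for Pecam1 (stromal and endothelial). The calls in these lists are from edgeR on the group alone. With the sex term edgeR called Cd79b and no other marker of any list, beside 0.314% of all genes. No marker was at 0 in all libraries. The part of these cells in the levels of the receptors was not tested either.

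Knockout replicate 3 had the highest level of 8 of the 10 genes, that is of all but Tlr6 and Ly96. Among the libraries labelled knockout it was also the highest for 13 of the 17 monocyte and macrophage markers and for all 9 erythroblast markers tested. Examples are the macrophage genes C1qa (153.2 CPM, against 57.5 and 101.5 in the other knockout libraries and 23.5 to 63.4 in controls) and Marco (22.6 CPM, against 7.87 and 10.7, and 0.25 or less in controls). The monocyte genes Ly6c2 and F13a1 and the marker Ms4a6c were instead lowest of the libraries labelled knockout there, with 395.3, 193.9 and 123.7 CPM. Its neutrophil marker sum, 7813 CPM, lay between those of the other knockout libraries. Without that library the log2 fold change of Cd14 was 1.41, that of Tlr1 1.31, that of Tlr4 0.79 and that of Tlr2 0.58, each still past the threshold (adjusted p = 0.0165, 0.0127, 0.0196 and 0.0378), while Tlr13 and Tlr6 lost their calls (adjusted p = 0.0591 and 0.101).

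**Figure D4:**
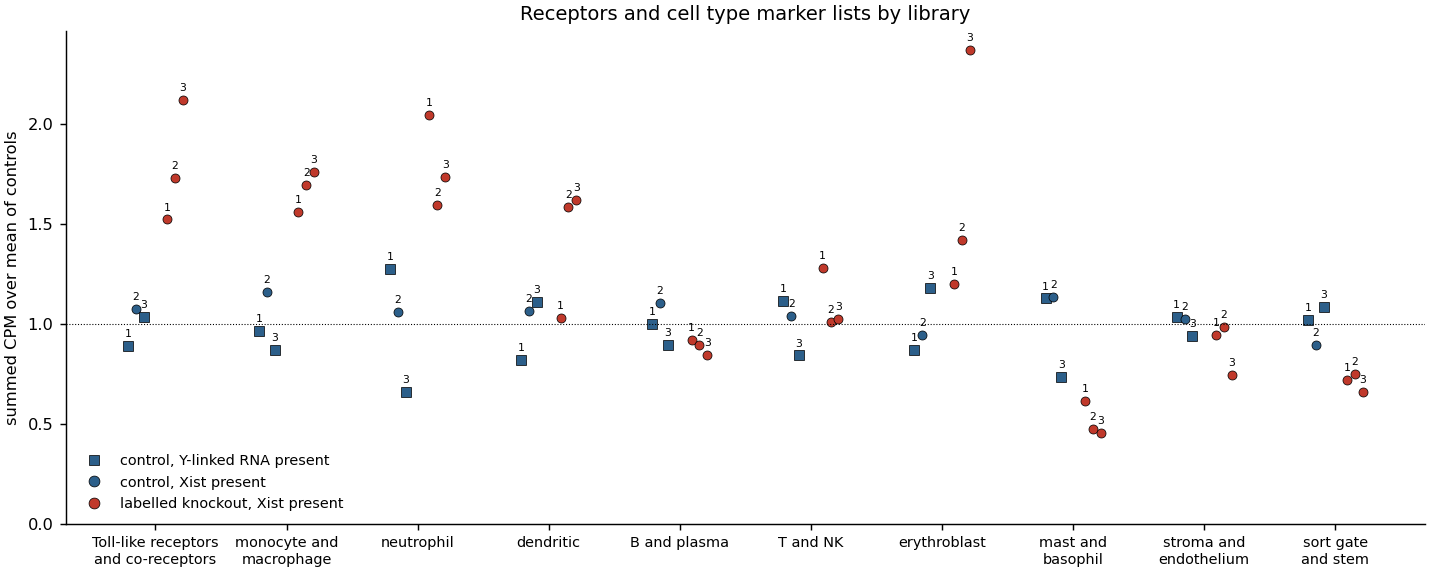
Summed level of the 10 genes and of marker lists in each library, divided by the mean of the 3 controls (digits: replicate number; squares: control libraries with Y-linked RNA). Abundant genes weigh most in a sum, such as Nkg7 for T and NK cells, Tfrc for erythroblasts and Pecam1 for stroma and endothelium. The receptor sum and the monocyte and macrophage sum are above all controls in every library labelled knockout and highest in replicate 3, as is the erythroblast sum, while the neutrophil sum is highest in replicate 1 and the sums of mast and basophil and of sort gate and stem cell genes are lower in all 3.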

How the data were processed

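RNA of sorted LSK cells was measured in 6 libraries. The values are raw read counts per gene symbol, as the authors deposited them, without scaling. Per the labels' protocols, a directional kit was used on poly(A) RNA, and per the submitters' processing notes STAR and mm10 were used for alignment. The sources used here do not name the counting tool, its annotation or its use of strand.

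edgeR 4.0.16 (R 4.3.3) was run on the deposited counts after filterByExpr (minimum count 10, minimum total 15) and TMM scaling, with a quasi-likelihood model of the group. P-values were adjusted by Benjamini-Hochberg across the 13679 symbols that passed the filter, at a threshold of 0.05. CPM are reads per 1000000 after TMM scaling. Each SE is the size of the log2 fold change divided by the square root of the quasi-likelihood F. Intervals (95%) use that SE with a t quantile. They are for the difference between groups and draw on the spread between libraries. Sex was read from Xist (over 100 CPM) and Y-linked counts. No library repeated another (lowest chi-square between pairs, 10.2 per degree of freedom). Scripts were tested on simulated counts.

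The 10 genes, the pathway and marker lists and the rules were chosen with earlier results of these data known. Named genes are the 10, other Toll-like receptors, pathway genes past the threshold (the 3 with the smallest p where more passed in a role) and the 5 genes most like the member with the smallest p. Other genes named in the text, such as pathway genes that did not pass, were chosen after their values were seen. Alternatives were upper-quartile scaling and DESeq2's size factors in edgeR, no and a stricter filter (1 CPM in 3 libraries), DESeq2 1.42.0, limma-voom (limma 3.58.1), also with library weights, a replicate block, leaving out each library, a sex term, female libraries alone and an adjusted p under 0.1. Gene models and lengths are from GENCODE M21, on the same assembly as mm10, and promoters from RefSeq (GRCm38.p6).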

Additional observations from a re-analysis of the deposited data

How the results depend on the processing

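All genes called numbered 1152, and 6 of the 10 receptor and co-receptor genes and 22 of the other pathway genes were among them. With the sex term 43 genes, 0 of the 10 and 0 pathway genes were called, and with female libraries alone, where the lone control is assumed to vary like the knockout libraries, 39, 0 and 0. In the edgeR fit with the sex term 6 of the 10 and 24 pathway genes had an unadjusted p under 0.05, where 11.9% of all genes had one. Leaving out a library gave 290 to 984 genes, 3 to 6 of the 10, and 3 to 19 pathway genes. The lowest of each came without knockout replicate 2. An adjusted p under 0.1 gave 2002 genes and 34 pathway genes. The replicate block gave 2172 genes, 8 of the 10 and 38 pathway genes, adding Tlr8 and Tlr9. The labels give replicate numbers but no shared source, so the numbers were not taken as pairs. Deviations of same-numbered libraries correlated at 0.293, -0.0048 and 0.339, and those of differently numbered libraries at -0.331 to 0.0578. Whether same-numbered libraries share a source was not tested. Other scalings, filters and tools called 6 to 8 of the 10. Over the 10 genes and all alternatives, 130 of 160 fits kept the direction and the side of the threshold, 21 lost the call, 6 gained it and 3 changed sign. Tlr7 had a log2 fold change of -0.0048 with limma-voom and library weights and between -0.15 and 0.24 with a library left out (lowest without knockout replicate 3), and Ly96 between -0.071 (without control replicate 1) and 0.32. The cause of these differences was not tested. With 12408966 reads in the smallest library, Ly96 rests on 28 to 83 reads.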
